A study of Mus musculus with 9 samples.

Results

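CC chemokines are small secreted proteins that draw leukocytes along a gradient by binding G protein-coupled receptors of the Ccr family. The 10 genes described here were taken by symbol: Ccl2, Ccl3, Ccl4, Ccl5, Ccl6, Ccl7, Ccl8, Ccl9, Ccl11 and Ccl12. Earlier results of these data were known when they were chosen. All 10 were among the 18049 genes of the deposited table. Macrophages and fibroblasts are both well-known sources of these genes. Ccl2, Ccl7 and Ccl12 are monocyte attractants that act through Ccr2, and Ccl8 is their close relative. Ccl11 attracts eosinophils through Ccr3, Ccl3, Ccl4 and Ccl5 attract macrophages and T cells, and Ccl6 and Ccl9 are rodent chemokines that act through Ccr1.

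RNA-sequencing had been performed on 9 clones of murine primary cells grown from tumors (MPC) of WTg mice, 1 library per clone. WTg stands for EL1-Luc/EL1-Tag x CAG-Mettl3. The pancreatic elastase I promoter drove luciferase and the SV40 large T antigen in these mice, and the ubiquitous CAG promoter drove Mettl3, the catalytic subunit of the RNA m6A methyltransferase. Every clone carried all of these transgenes and was labelled untreated, so the clones formed a single group with no control. Another label field names NMS-P937, a PLK1 inhibitor, and no dose was taken from it. The age and sex of the mice were not stated, and no label said which clones shared a mouse.

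The column names began in 3 ways that the authors did not explain, and they were treated as possible batches. Prefix A held 1 library (A1), prefix B held 4 (B1 to B4) and prefix C held 4 (C1 to C4). Depth ran from 12198022 reads on genes in A1 to 20453923 in B4 (median 18082561). A level is given in normalized counts, which are reads multiplied by 1 scaling factor per library, and 3 reads, taken as the detection floor, were worth 3.79 to 6.56 of them. Intervals and floors cover counting error only, and p-values measure the spread between these clones. No transcript lengths were used, so levels are compared between libraries and not between genes. The cells were labelled fibroblasts. All 14 fibroblast markers were in the table and made up 1.45 to 3.92% of the normalized counts, and all 16 macrophage markers were too, at 2.18 to 3.38%. Of the markers of T and NK cells, neutrophils, mast cells and eosinophils, and dendritic cells, 2 each were in the table, with summed shares of at most 0.00371%. Of 7 epithelial markers listed, 6 were in the table. Epcam had no read in any library, and Krt8 and Krt18 had at most 1 and 5 reads in a library. Krt19 (7.23 to 145 normalized counts), Cdh1 (8.91 to 152) and Muc1 (6.31 to 17.2) were above the floor in all 9. Of 6 acinar genes listed, 5 (Prss2, Ctrb1, Cpa1, Amy2a5 and Cela2a) were at 147 to 610 normalized counts in library C3 and at 51.5 or less in the other 8. The exception was Cela1, the elastase I gene, at 288 in C3 and up to 293 in the others. In bulk RNA, fewer cells of a type and less RNA per cell cannot be told apart.

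The members lie in 2 clusters on chromosome 11 (GRCm38.p6, RefSeq). The first spans 81.2 kb at chr11:82035577-82116799 and holds Ccl2, Ccl7, Ccl11, Ccl12 and Ccl8, in that order. The second spans 138.9 kb at chr11:83525778-83664683 and holds Ccl5, Ccl9, Ccl6, Ccl3 and Ccl4. They are 1409 kb apart. The annotated spans of Ccl3 and Ccl4 overlap by 755 bases, and whether the counting used strand is not given in the sources used here, so reads in the overlap may have gone to either gene.

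RefSeq promoter sequences were given for 5 of the 10 members, namely Ccl12, Ccl8, Ccl9, Ccl6 and Ccl3. The 250 bases before the annotated start are printed for Ccl12 and Ccl8, the pair with the highest correlation across clones, and for Ccl9, the steadiest member. Capitals mark every match on either strand to TATAAA, to the AP-1 letters TGANTCA or to the NF-kB motif, including letters where matches overlap. The stretches are chr11:82101595-82101844 for Ccl12 (plus strand), chr11:82114935-82115184 for Ccl8 (plus strand) and chr11:83578637-83578886 for Ccl9 (minus strand).
Ccl12: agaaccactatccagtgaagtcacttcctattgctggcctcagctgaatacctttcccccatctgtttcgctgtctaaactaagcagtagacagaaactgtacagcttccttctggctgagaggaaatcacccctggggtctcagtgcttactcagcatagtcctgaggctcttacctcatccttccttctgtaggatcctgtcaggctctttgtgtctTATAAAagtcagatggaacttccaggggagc
Ccl8: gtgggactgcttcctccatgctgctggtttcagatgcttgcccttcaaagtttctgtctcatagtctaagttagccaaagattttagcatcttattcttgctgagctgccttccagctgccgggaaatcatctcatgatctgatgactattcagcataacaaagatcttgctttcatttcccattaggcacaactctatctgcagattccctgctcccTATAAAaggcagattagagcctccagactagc
Ccl9: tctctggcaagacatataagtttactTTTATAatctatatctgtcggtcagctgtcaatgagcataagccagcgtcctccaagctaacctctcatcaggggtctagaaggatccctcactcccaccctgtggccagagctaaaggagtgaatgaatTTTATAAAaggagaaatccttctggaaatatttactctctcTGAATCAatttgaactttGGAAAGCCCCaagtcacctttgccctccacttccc

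Ccl12 and Ccl8 each held a single TATAAA, from base -31 to -26 and from base -32 to -27 counted from the start. TATAAA was found in 12.4% of 32851 mouse promoter stretches of the same length. Set base against base from the start, the Ccl12 and Ccl8 stretches had the same base at 36% of positions, and the other 9 pairs among the 5 members were between 20 and 28%. Ccl9 held 1 match to the NF-kB motif on the opposite strand (3.90% of all stretches), 1 to TGANTCA, which reads the same way on both strands there (6.75% of all stretches), and 3 to TATAAA, 2 of which overlap. No match to these letters lay in the stretches of Ccl6 and Ccl3.

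**Figure D1:**
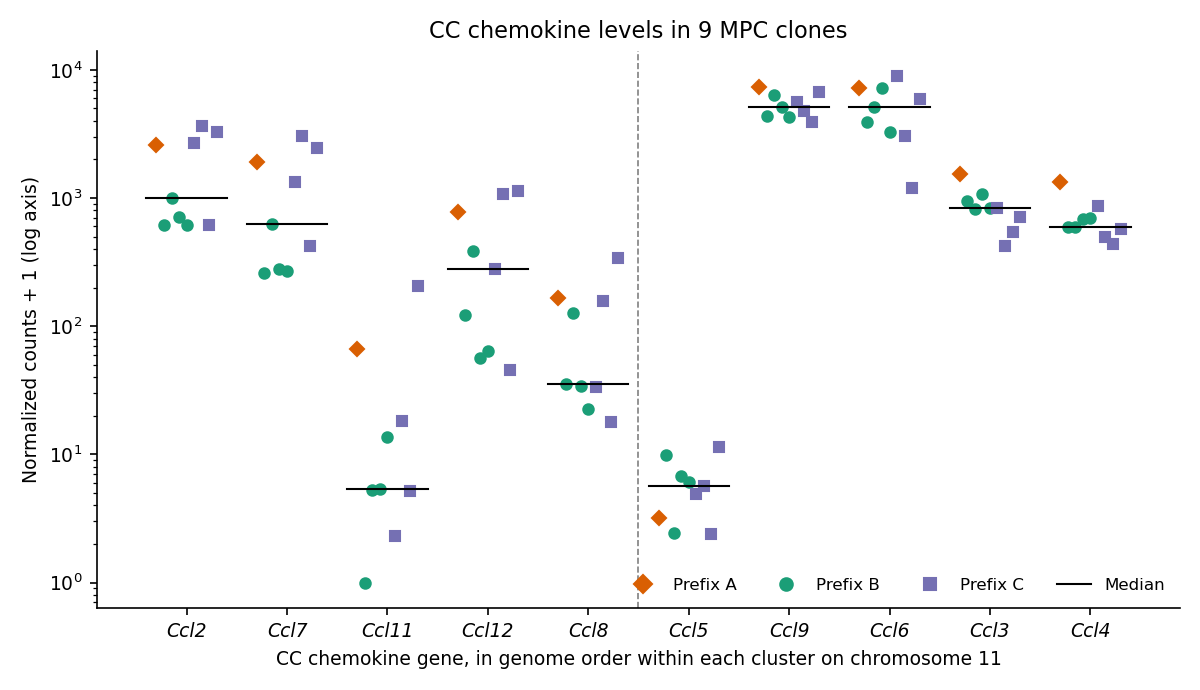
Normalized counts plus 1 (vertical log axis) of the 10 CC chemokine genes (horizontal axis) in 9 MPC libraries. Each point is 1 library, colour and shape give its prefix, the black line is the median, and the dashed line parts the 2 clusters. Ccl12 spans 44.8 to 1122 normalized counts, whereas Ccl9 spans 3927 to 7309.

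Across the 9 clones, levels of the first cluster spread more widely than those of the second. The SD of log2(normalized counts + 1) was 1.14 for Ccl2, 1.45 for Ccl7, 1.52 for Ccl8, 1.86 for Ccl12 and 2.39 for Ccl11. In the second cluster it was 0.31 for Ccl9, 0.48 for Ccl4, 0.54 for Ccl3 and 0.89 for Ccl6. Among 14705 genes whose mean reached 10 normalized counts, the median SD was 0.25 and 8.54% had an SD over 1. The 5 genes of the first cluster lay between percentiles 93.3 and 99.0 of that distribution, and Ccl9 lay at percentile 59.0. The highest, Ccl11, was above the floor in only 4 of 9 libraries, so counting error and the added 1 shape its SD. The next, Ccl12, lay at percentile 97.8. Ccl5 was under the mean of 10 and was not placed.

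Ccl2 (ENSMUSG00000035385) encodes the main attractant of Ccr2-bearing monocytes. It was at 2611 normalized counts in A1. The prefix B libraries were at 615, 994, 715 and 612, and the prefix C libraries at 2694, 3638, 616 and 3279. Thus A1, C1, C2 and C4 lay at 2611 or above and the other 5 libraries at 994 or below, with C3 inside the range of prefix B. The mean was 1753 ± 1277 (SD, n = 9). The counting interval of B2, the highest of the lower set, was 923 to 1071 (95%, Wilson). That of A1, the lowest of the higher set, was 2467 to 2763, so the sets did not overlap within counting error.

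Ccl7 (ENSMUSG00000035373) encodes a monocyte attractant that binds several receptors. Its level was 1906 normalized counts in A1. It was 257, 629, 278 and 270 in the prefix B libraries and 1319, 3055, 420 and 2450 in the prefix C libraries. The same 4 libraries as for Ccl2 were the highest, and the highest level was 11.9 times the lowest. Of 16962 genes compared, 660 (3.89%) had these 4 as their highest libraries. The 4 were taken from Ccl2, so among the members Ccl7 alone is an observation. The ratio of Ccl7 to Ccl2 within a library, which does not depend on the scaling, still differed 2.16-fold, from 0.389 in B3 to 0.840 in C2.

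Ccl12 (ENSMUSG00000035352) encodes a mouse monocyte attractant close to Ccl2. It was at 779 normalized counts in A1, at 122, 387, 55.0 and 63.1 in the prefix B libraries, and at 278, 1069, 44.8 and 1122 in the prefix C libraries. The highest level was 25.1 times the lowest. Here B2 lay above C1, so the order of the libraries was not that of Ccl2. The ratio of Ccl12 to Ccl2 ranged 5.36-fold, from 0.0727 in C3 to 0.390 in B2.

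Ccl8 (ENSMUSG00000009185) is a close relative of Ccl2, Ccl7 and Ccl12. Its level was 166 normalized counts in A1, 34.4, 127, 33.3 and 21.5 in the prefix B libraries, and 32.3, 156, 16.8 and 338 in the prefix C libraries. Library C4 stood highest, C3 lowest, and C1 lay with the lower prefix B libraries although its Ccl2 was high. The 16.8 of C3 rests on 12 reads, with a counting interval of 9.60 to 29.3 (95%, Wilson).

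Ccl11 (ENSMUSG00000020676), the eosinophil attractant, was seen above the floor in 4 of 9 libraries. It was at 204 normalized counts in C4, with a counting interval of 173 to 241 (95%, Wilson), and at 65.6 in A1. C2 was at 17.2 and B4 at 12.6. The other 5 libraries held 0 to 3 reads. In B1 no read was counted, which by the floor of 3 reads allows a level of up to 3.82. Thus 1 clone stood apart, and most clones could not be ordered at this depth.

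Among the genes of the second cluster, Ccl9 (ENSMUSG00000019122), a macrophage chemokine found in rodents, was the most even. It was at 7309 normalized counts in A1, at 4330, 6327, 5093 and 4303 in the prefix B libraries, and at 5641, 4795, 3927 and 6729 in the prefix C libraries. The mean was 5384 ± 1189 (SD, n = 9), and the highest level was 1.86 times the lowest. The ranges of the prefixes overlapped.

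Ccl6 (ENSMUSG00000018927), also a rodent myeloid chemokine, was less even. It was at 7256 normalized counts in A1, at 3891, 5148, 7230 and 3276 in the prefix B libraries, and at 8932, 3053, 1196 and 5881 in the prefix C libraries. C3 was the lowest and C1 the highest, 7.47-fold apart. The ratio of Ccl6 to Ccl9 ranged 5.20-fold between the same 2 libraries, from 0.305 to 1.58.

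Ccl3 (ENSMUSG00000000982) and Ccl4 (ENSMUSG00000018930) encode related inflammatory chemokines that are made rapidly by activated macrophages. Ccl3 was at 1547 normalized counts in A1, at 940, 820, 1079 and 838 in the prefix B libraries, and at 837, 420, 543 and 704 in the prefix C libraries. Ccl4 was at 1339 in A1, at 592, 590, 683 and 691 in prefix B, and at 872, 499, 434 and 569 in prefix C. Both were highest in A1, and Ccl4 there lay well clear of the other 8 libraries. The ratio of Ccl3 to Ccl4 ranged 1.89-fold, from 0.841 in C2 to 1.59 in B1.

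Ccl5 (ENSMUSG00000035042), a chemokine of T cells and activated macrophages, was close to the floor. Its highest level was 10.3 normalized counts, in C4, from 7 reads, and its lowest was 1.40 in C3, from 1 read. It was above the floor in 4 of 9 libraries, and differences between clones were not detectable at this depth.

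**Figure D2:**
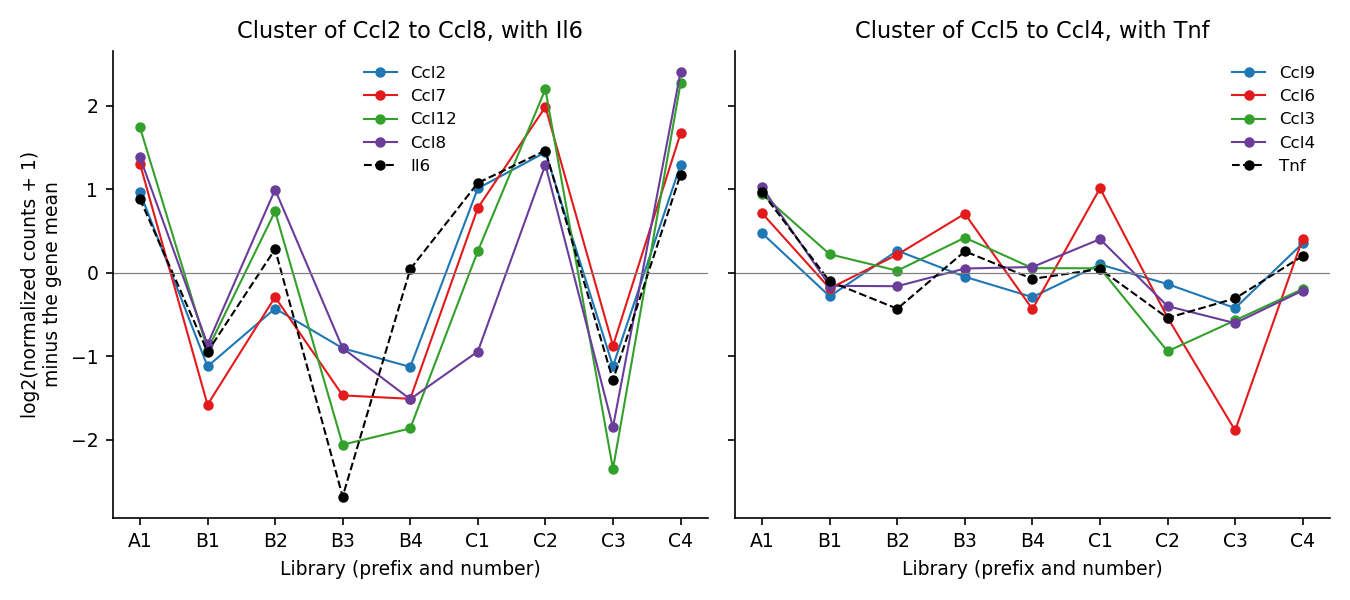
Log2(normalized counts + 1) minus the mean of each gene (vertical axis) over the 9 libraries (horizontal axis), for 4 members of each cluster and for the cytokine genes Il6 and Tnf (dashed). Lines only join the values of a gene. Ccl12 in the left panel covers 44.8 to 1122 normalized counts, and Ccl9 in the right panel 3927 to 7309.

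Prefix C was compared with prefix B to see how much of this spread lay between the sets of column names. A difference between prefixes cannot be told apart from one between mice, sexes or batches. With limma over 16985 genes, 0 of the 10 members passed an adjusted p of 0.05, and 29 genes (0.171%) passed among all. At an unadjusted p under 0.05 there were 3 members (Ccl7, Ccl2 and Ccl3) and 3141 genes, and voom called 0 members as well. The ranges of the prefixes overlapped for all 10 members, whereas they did not for 9.47% of genes. The median difference was 0.43 on the log2 scale over the members and -0.02 over all genes tested. Over the members it was 0.88 without C3 and 0.0032 without C4, so it rested on single libraries.

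Ccl7 differed by 2.10 ± 0.59 (SE) on the log2 scale, higher in prefix C, with an adjusted p of 0.166 (limma). For Ccl2 the difference was 1.55 ± 0.52 (SE), with an adjusted p of 0.196 (limma). Ccl3 leaned the other way at -0.59 ± 0.20 (SE), with an adjusted p of 0.201 (limma). Estimates for Ccl12, Ccl11 and Ccl8 were 1.62 ± 1.05, 1.71 ± 1.37 and 0.80 ± 0.94 (SE). Single libraries moved them strongly, since without C4 they were 1.06, 0.44 and 0.07, and without C3 they were 2.60, 2.21 and 1.49. Estimates for Ccl9, Ccl4, Ccl6 and Ccl5 were between -0.33 and 0.06 with all 8 libraries.

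Library C3, which had the lowest Ccl2 and Ccl7 of prefix C, decided these calls. Without it, Ccl2 was higher in prefix C by 2.14 ± 0.19 (SE) on the log2 scale with an adjusted p of 0.00798 (limma), and Ccl7 by 2.69 ± 0.39 (SE) with an adjusted p of 0.0292 (limma). These were the 2 of 10 members that passed, and 1.55% of all genes passed in that fit. With any other single library left out, 0 members passed. Leaving out the prefix C library nearest to prefix B widens a difference by itself, so these 2 calls are a description. Without C3, Ccl12 was at 2.60 ± 0.76 (SE) with an adjusted p of 0.120 (limma). The part of the acinar signal in the levels of C3 was not tested. The levels of cell type markers in the prefixes are given as a description and were not tested as lists. The mean log2 level of the 16 macrophage markers was 12.9 to 13.4 in prefix C and 13.5 to 13.8 in prefix B, and 4 of the 16 lay lower in every prefix C library. That of the 14 fibroblast markers was 12.5 to 12.9 in prefix C and 12.2 to 12.6 in prefix B, so these ranges overlapped. Of the 14, 3 (Vim, Acta2 and Pdgfra) lay higher in every prefix C library. Among all 16985 genes, 9.47% had ranges that did not overlap, in either direction. Some fibroblast markers leaned the other way, among them Dcn and Lum. Their means were 373 and 4.12 in prefix C and 1366 and 28.1 in prefix B, with ranges that overlapped. For both lists the summed shares of normalized counts overlapped. They were 2.18 to 3.38% in prefix C and 2.78 to 3.23% in prefix B for macrophage markers. For fibroblast markers they were 2.01 to 3.92% and 1.45 to 2.28%. The part of these markers in the differences of Ccl2 and Ccl7 was not tested.

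**Figure D3:**
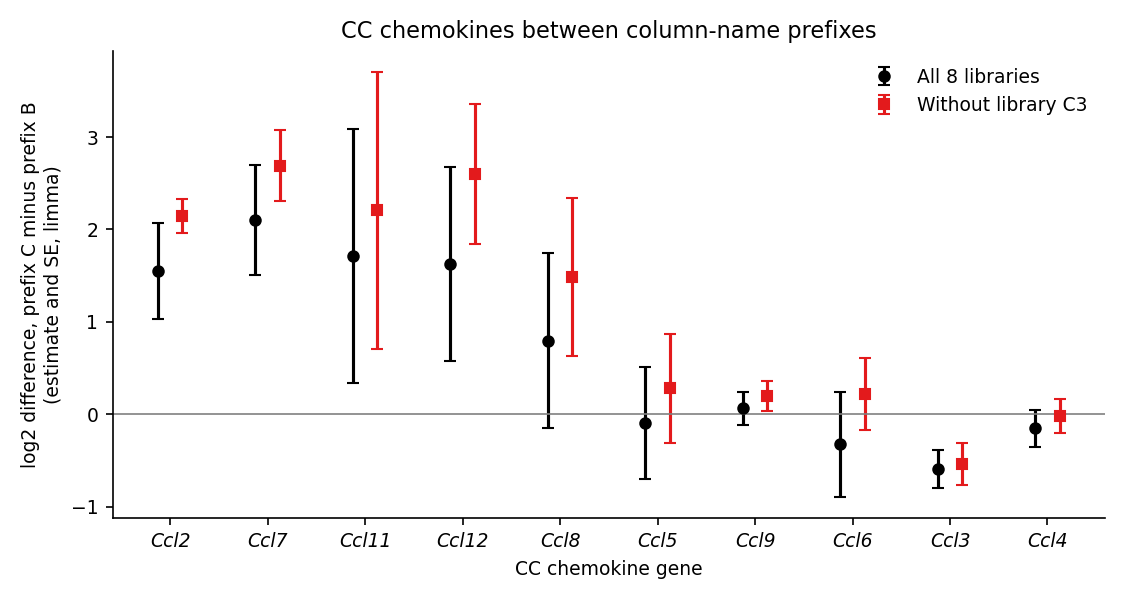
Difference between prefix C and prefix B on the log2(normalized counts + 1) scale (vertical axis, limma estimate with its SE as the bar) for the 10 members (horizontal axis), with all 8 libraries and without library C3. Ccl2 moves from 1.55 to 2.14 and Ccl7 from 2.10 to 2.69 when C3 is left out.

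The study asked how raised Mettl3 bears on tumor cells, so the members were also set against Mettl3. Mettl3 was at 2184 normalized counts in A1 and between 468 and 621 in the other 8 libraries, and reads from the gene and the transgene were counted together. With limma over 16961 genes, 0 of 10 members passed an adjusted p of 0.05 for a slope on log2(Mettl3 + 1), against 417 genes (2.46%). The median slope was 0.52 over the members and -0.0021 over all genes, and without A1 these were -0.099 and 0.068. Voom called 0 members as well, and an unadjusted p under 0.05 was found for 2 members and 2476 genes. The 2 were Ccl4, with a slope of 0.54 ± 0.14 (SE) and an adjusted p of 0.0920 (limma), and Ccl3, with a slope of 0.56 ± 0.18 (SE) and an adjusted p of 0.163 (limma).

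A1 was the only library with high Mettl3, and the clone, its prefix and its Mettl3 level cannot be told apart. Without A1, no member and no gene passed with limma (0 of 16984 genes, of which 1772 had an unadjusted p under 0.05), and the SEs were several times larger. The slope of Ccl4 was then 0.18 ± 0.71 (SE), and that of Ccl3 kept its sign and was 1.69 ± 0.81 (SE, adjusted p = 0.514, limma). For Ccl2 it turned from 0.36 to -3.43 and for Ccl7 from 0.49 to -4.48.

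**Figure D4:**
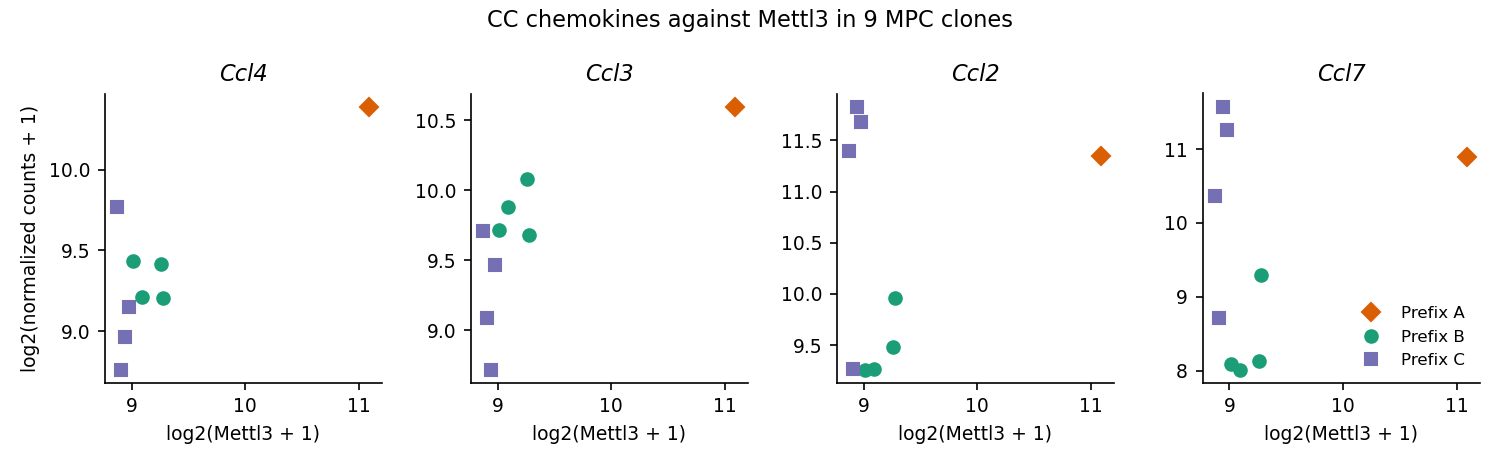
Log2(normalized counts + 1) of Ccl4, Ccl3, Ccl2 and Ccl7 (vertical axes, each with its own range) against that of Mettl3 (horizontal axes) in 9 libraries, coloured by prefix. The prefix A library lies alone at the right of each panel, at 2184 normalized counts of Mettl3, and the other 8 lie between 468 and 621.

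Whether members varied together across clones was examined over 8 members. Ccl5 was left out for its low level, and Ccl2 because its libraries fell into separate sets. Ccl11 was kept for its mean of 34.8, although only 4 of its 9 libraries were above the floor. Of the 28 pairs, 2 had an adjusted p under 0.05 by Pearson's r on log2(normalized counts + 1), tested over all 362880 pairings of the 9 libraries (exact permutation test, two-sided), and 0 by Spearman's rho. With scaling to upper quartiles 1 pair passed by rho, Ccl12 and Ccl8 (rho 0.95, adjusted p = 0.00988, exact permutation). At an unadjusted p under 0.05 for r there were 9 pairs. Correlations over 9 libraries share the scaling and the prefixes, so the values after centring within prefixes B and C are given as well.

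Ccl12 and Ccl8 had an r of 0.928 (exact permutation p = 0.0010, adjusted 0.0281) and a rho of 0.900 (adjusted p = 0.0568, exact permutation). Leaving out the 2 clones whose Ccl12 lay farthest from its median gave an r of 0.924, and centring within prefixes gave 0.928. Ccl7 and Ccl12 had an r of 0.915 (exact permutation p = 0.0025, adjusted 0.0355) and a rho of 0.800 (adjusted p = 0.119, exact permutation). Their r was 0.841 without the 2 farthest clones and 0.967 within prefixes. Without A1, r for Ccl7 and Ccl12 was 0.904 and no longer passed (adjusted p = 0.0594, exact permutation).

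On the median, pairs of genes in the same cluster had a higher r than pairs across clusters. The median r was 0.761 over the 6 pairs of the first cluster and 0.671 over the 6 pairs of the second, and 0.225 over the 16 pairs across, which ranged from -0.235 to 0.785. These medians are descriptions and were not tested, and those of the first cluster and across clusters include the pairs of Ccl11. The highest pair across clusters was Ccl8 and Ccl9, and Ccl3 was near 0 or negative with the 4 genes of the first cluster that were paired. The r of Ccl11 with its 3 neighbours was 0.609 to 0.730 and rested on A1, C2 and C4, since it was 0.208 to 0.468 without the 2 farthest clones. Ccl11 was above the floor in only 4 of 9 libraries, so the order of the others was not measured at this depth. In the second cluster, Ccl3 and Ccl4 had an r of 0.831 and a rho of 0.833, which did not pass after adjustment (adjusted p = 0.0591 and 0.116, exact permutation), with an r of 0.674 without the 2 farthest clones and 0.734 within prefixes.

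**Figure D5:**
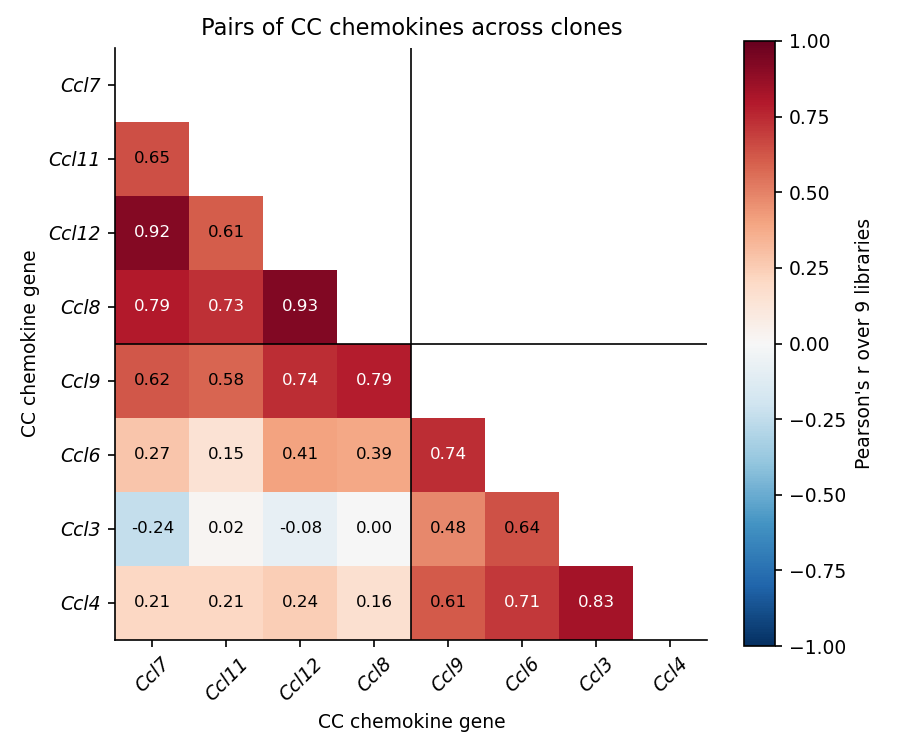
Pearson's r over 9 libraries (colour and number) for the 28 pairs of 8 CC chemokine genes (both axes), with black lines between the 2 clusters. Values are highest for Ccl12 with Ccl8 (0.93) and Ccl7 with Ccl12 (0.92), and lowest for Ccl7 with Ccl3 (-0.24).

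Because the clones held both macrophage and fibroblast markers, the members were set against the level of each list. Over 16 relations of the same 8 members with the mean log2 level of either marker list, 0 passed by r or rho (exact permutation test, Benjamini-Hochberg), and 3 had an unadjusted p under 0.05 by r. The strongest was Ccl7 with the macrophage list, at an r of -0.820 and a rho of -0.750 (exact permutation p = 0.0104 and 0.0255, adjusted 0.166 and 0.406). It was weaker within prefixes, with an r of -0.442 there and -0.699 without the 2 farthest clones. Without A1 its r was -0.802, and Ccl3 with the fibroblast list was then the strongest. That r was -0.856 (exact permutation p = 0.00454, adjusted 0.0726), against 0.113 with A1. The r of Ccl3 with the macrophage list was 0.780 without A1 and 0.380 with it. With the fibroblast list and all 9 libraries, Ccl11 had an r of 0.681 and Ccl7 an r of 0.647 (exact permutation, adjusted p = 0.258 for each). Within prefixes these were 0.529 and 0.213. With a pseudocount of 0.1 they were 0.593 and 0.550, and neither kept an unadjusted p under 0.05 (exact permutation). Ccl11 was above the floor in only 4 of 9 libraries.

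Of the receptors of CC chemokines, 9 of 15 listed were in the table. Ccr1, the receptor of Ccl3, Ccl6 and Ccl9, ranged from 862 normalized counts in B4 to 3261 in A1 (median 1298). Ccr2, through which Ccl2, Ccl7 and Ccl12 act, was at 4.68 to 26.6 in the 9 libraries, and Ccr3, the receptor of Ccl11, at 8.75 to 148. The lowest and highest Ccr2 libraries were C2 and C4, from 3 and 18 reads, and C2 was thus at the floor of 3 reads. None of the 9 receptors passed in either comparison with limma or with voom, and 3 had an unadjusted p under 0.05 in each limma comparison. Among all genes 3141 of 16985 did so between prefixes and 2476 of 16961 for Mettl3. Ccrl2, a binding receptor that does not signal, was highest in A1 at 197, against 88.0 to 136 elsewhere.

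Among CC ligands outside the 10, 3 of 11 were in the table. Ccl25, which acts in thymus and gut, was even at 114 to 161 normalized counts. Ccl27a, a skin chemokine, was at 35.9 to 42.0 in prefix C, below the 50.5 to 75.1 of prefix B (difference -0.76 ± 0.20 SE on the log2 scale, adjusted p = 0.155, limma). Ccl28 was at 0 to 21.4 and above the floor in 5 of 9 libraries. None of the 3 passed either comparison with limma or voom. Ccl27a alone had an unadjusted p under 0.05, between prefixes, where 3141 of 16985 genes did.

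Of 20 listed inducers and feedback genes of chemokine transcription, 17 were in the table. Il6, a cytokine often induced together with Ccl2, was at 387 normalized counts in A1, at 108, 255, 31.8 and 216 in prefix B, and at 442, 579, 85.3 and 474 in prefix C. Its 4 highest libraries were those of Ccl2 and Ccl7. This held for 1 gene of the 17, against 660 of 16962 genes (3.89%) among all. The NF-kB subunit genes were far more even, with Rela at 2037 to 2597 and Nfkb1 at 2116 to 3277. Tnf, a strong inducer of chemokines, was at 1232 in A1 and at 434 to 755 elsewhere. Zfp36, whose protein speeds the decay of cytokine mRNAs, was at 5153 in A1 and at 1086 to 2795 elsewhere. Fos, an AP-1 subunit, was at 4692 in A1 and at 388 to 1386 elsewhere, and was the 1 gene of the 17 that passed for Mettl3 (slope 1.26 ± 0.23 SE, adjusted p = 0.0230, limma). Among all genes 417 of 16961 (2.46%) passed for Mettl3, and with voom Fos did not pass. None of the 17 passed between prefixes with limma or voom, and 6 had an unadjusted p under 0.05, against 3141 of 16985 genes. Without C3, 2 fell in prefix C, namely Zfp36 by 0.94 and Il1b by 1.58 on the log2 scale (adjusted p = 0.0350 and 0.0446, limma). In that fit 263 of 16959 genes (1.55%) passed.

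The genes whose pattern was most like that of each member, Ccl5 aside, were taken by the highest Pearson's r over the 9 libraries from 12293 genes whose mean reached 50 normalized counts. For Ccl7 they were Carhsp1 (0.973), Shf (0.972) and Pgam1 (0.971). For Ccl2 they were Mif, Shf and Pgam1, with no r printed because its libraries fell into separate sets. Mif encodes a macrophage cytokine, and it ranged from 2662 in C3 to 4926 normalized counts in C2. For Ccl12 they were Anpep (0.961), Saa3 (0.960) and Hic1 (0.959). Saa3, an acute-phase gene, was at 16.8 in C3 and 211 in C2. Ccl8 was nearest to Pcgf2 (0.960), and Ccl11 to Cand2 (0.925), although Ccl11 was above the floor in only 4 of 9 libraries. In the second cluster, Ccl9 was nearest to Nqo2 (0.989), Ccl6 to Get3 (0.948), Ccl3 to Btf3l4 (0.943) and Ccl4 to Rab28 (0.948). These values are the highest of 12293 for each member, so they are given as a description.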

How the data were processed

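RNA from 9 clones of WTg MPC had been extracted and sequenced as stranded mRNA libraries. The submitters' processing notes name FastQC 0.11.9, STAR 2.7.10, RSEM 1.3.3 and GRCm38, without roles. The authors deposited log2 values for 18049 genes, each being the log2 of a read count times 1 factor per library plus 4. These steps were undone to give normalized counts, and the value of 1 read, found from the spacing of low values, gave whole reads for 100% of nonzero values under 1000 reads (tolerance 0.1 read). How reads shared by similar genes were treated is not given in the sources used here. The table's columns name no single sample, so libraries were used as replicates of 1 group, and 6 columns that belong to other series were not used. Prefixes B and C were compared, and slopes on Mettl3 fitted, with limma 3.58.1 in R 4.3.3 (moderated tests with an intensity trend) on log2(normalized counts + 1), over genes averaging 1 or more, with Benjamini-Hochberg adjustment over all genes. The fits were tested on simulated data. Correlations were tested in Python 3.11.15 with scipy 1.17.1 over all pairings. Genes named are the members, listed receptors, ligands and inducers, Mettl3, marker genes that touch a result, and the 3 genes nearest each member, and not every listed gene is reported here. The members and lists were chosen with earlier results of these data known. Alternatives were another pseudocount, the deposited log2 values, other scalings and filters, voom, and leaving out libraries.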

Additional observations from a re-analysis of the deposited data

Results flagged for a closer look

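A library lay far from the other 8 for 3 members, by the gap to its nearest neighbour divided by the whole range of normalized counts (past Dixon's 95% critical value). Ccl11 was high in C4 (0.678), Ccl8 was high in C4 (0.535) and Ccl4 was high in A1 (0.516). Library A1 was also high for Ccrl2 (0.558), Tnf (0.597), Zfp36 (0.580), Fos (0.768) and Mettl3 (0.911). In all, 8 of 39 genes tested had such a library, and each of the 8 was on the high side. The critical value assumes normally distributed values, for which about 1.95 genes would be flagged. It was applied to normalized counts and not to log2 values, and a long upper tail raises the number flagged. The 8 are therefore a description and are not set against a chance rate. The genes are not independent, and A1 differs from the others in prefix and in depth as well as in Mettl3.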

How the results depend on the processing

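Rescaling to upper quartiles or library totals moved no library by more than 0.07 on the log2 scale. In the comparison of prefixes, leaving out 1 library at a time gave 0 to 2 members and 10 to 263 genes past the threshold, where all 8 libraries gave 0 and 29. The 263 came without C3. The count was 10, 16, 11 and 18 without B1, B2, B3 and B4, 17 without C2 and 10 without C4. With no filter on low values it was 15. Of estimates near 0, those of Ccl5 ranged from -0.50 to 0.28, of Ccl9 from -0.064 to 0.20 and of Ccl6 from -0.75 to 0.22 as libraries were left out, so their directions were not fixed. Ccl11 ranged from 0.44 (without C4) to 2.60 (without C1), Ccl8 from 0.07 (without C4) to 1.49 (without C3) and Ccl12 from 1.06 (without C4) to 2.60 (without C3). For Mettl3, 417 genes became 656 with a pseudocount of 0.1, 238 with a mean of at least 50, 69 with voom and 0 without A1, while 0 members passed under each alternative. With voom 45 genes rose and 24 fell, against 55 and 362. Without A1 the slopes turned to -3.43 for Ccl2, -4.48 for Ccl7, -3.00 for Ccl11 and -2.18 for Ccl12. Without A1, 1 pair of members passed in place of 2. No marker relation passed under any alternative run. No paired analysis was possible because there was only 1 group of clones.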
